A study of Rattus norvegicus with 9 samples.

Results

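Serine-threonine kinases that carry second-messenger, stress and growth signals were examined in the posterior cricoarytenoid, the laryngeal muscle that opens the vocal folds. The members were the probe sets whose only gene symbol on the platform starts with Prka, Prkc, Prkg, Camk, Mapk, Map2k, Map3k, Akt, Rps6k or Gsk3. This gave 55 genes, read by 102 probe sets, out of 4736 genes with a single symbol on the array, with the probe set of highest mean signal standing for each gene. A few of these symbols name partners rather than kinases: *Aktip*, *Mapk8ip1*, *Mapk8ip2*, *Camk2n1*, *Camk2n2*, the pseudokinase *Camkv* and the regulatory subunits of PKA and AMPK. Rats aged 6, 18 and 30 months were compared, with 3 arrays per age and RNA pooled from 4 animals on each array, so that the spread between arrays is a spread between pools. Age is the only difference between the groups that the labels give, and neither strain nor sex is given in the sources used here. The labels name a pair of dyes, Cy3 and Cy5, whereas the series' design describes biotin-labelled RNA on one-colour arrays; each array has 1 signal per probe set and was treated as one-colour. The series took 6 months as its baseline and asked how expression in this muscle shifts with age.

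These kinases sit between a signal and the proteins that change a muscle fibre. Cyclic AMP frees the catalytic subunits of protein kinase A (PKA) from their regulatory subunits, calcium bound to calmodulin turns on the CaM kinases, and diacylglycerol turns on the conventional and the calcium-independent δ, ε, η and θ forms of protein kinase C (PKC), of which the conventional ones also need calcium. AMP-activated protein kinase (AMPK) is a trimer of a catalytic α subunit with β and γ subunits that responds to a falling energy charge, while the MAP kinases form chains in which one kinase phosphorylates the next, and Akt, S6 kinase and GSK3 act downstream of insulin. Their activity is set largely by phosphorylation and binding, which transcript signals do not measure.

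The deposited signals were on a common scale, with a mean after trimming 2% at each end of 500.87 to 500.97 on all 9 arrays, which is therefore no measure of likeness between ages. The median signal was 104 to 125 per array, and log2 signals correlated at 0.978 to 0.986 between arrays of the same age and at 0.975 to 0.989 between ages, across probe sets that are not independent replicates. Skeletal muscle markers were strong: 9 of 10 were on the array, and their summed signal was 133844 to 152738 at 6 months, 155278 to 189706 at 18 months and 160368 to 175924 at 30 months. Fibroblast markers, 6 of 6 measured, summed to 15958 to 20000.4 at 6 months, 11686 to 12573 at 18 months and 13031 to 13198 at 30 months, so that the baseline arrays lay above both older ages. Schwann cell and nerve markers, 6 of 7 measured, summed to 2929 to 3461, 2609 to 2904 and 2535 to 2866 in the same order of ages. The baseline arrays were again highest, but most of this sum was *Pmp22*, with means of 2369, 1976 and 1912. *Mbp* and *Nefl* also averaged highest at 6 months, whereas *Mag* did so at 18 months and *S100b* and *Nefm* at 30 months. The leukocyte markers, 5 of 6 measured, summed to 1166 to 1318, 988 to 1275 and 1313 to 1793. Here too the members differed: *Lyz2* and *Cd74* averaged highest at 30 months, *Cd14* and *Itgam* at 6 months and *Ptprc* at 18 months. Thyroglobulin (*Tg*) read 628 on replicate 3 of 18 months and 555 on replicate 3 of 30 months, against 30.2 to 109 on the other 7 arrays. The part of these markers in the kinase values was not tested, and in whole muscle, fewer cells of a type and less RNA per cell cannot be told apart.

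No kinase gene passed the test at any age. Of the 55 genes, 43 passed the filter on low signal and were tested, and 0 of 43 reached an adjusted p of 0.05 by limma in any of the 3 comparisons or in the F-test over ages. Calls were rare over all 5244 tested probe sets too, at 0.0763% in 18 against 6 months, 0.324% in 30 against 6 months, 0.0191% in 30 against 18 months and 0.267% in the F-test. At an unadjusted p under 0.05 there were 4 members of 43 (9.30%) in 18 against 6 months, where 8.62% of all probe sets met it. These were *Prkcz* and *Mapk12* higher and *Prkaa2* and *Camk2n1* lower, beside 2.99% of all probe sets higher and 5.63% lower. In 30 against 6 months 3 members (6.98%) met it, *Prkcz* and *Mapk12* higher and *Prkar2a* lower, beside 12.9% of all probe sets, 4.18% higher and 8.73% lower. In 30 against 18 months 2 (4.65%) met it, *Camk2n1* higher and *Prkar2a* lower, beside 3.20% of all, 1.47% higher and 1.74% lower, and in the F-test 5 of 43 met it beside 8.92% of all. None of these shares stands far from the background, so the counts are no result about the kinases. The count of 3 became 6 when the first 18-month array was left out, beside 751 of all 5244 probe sets. It became 5 without the first 30-month array, beside 566 of all. The count of 2 became 1 without any one of 4 arrays, beside 152 to 169 of all. These were replicates 2 and 3 of the 6-month group and replicate 3 of each older group. Without both arrays high in thyroglobulin the counts were 2, 1 and 1, beside 416, 572 and 151 of all.

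The members were centred on no difference. Their median log2 change was -0.0017 at 18 months and 0.01 at 30 months against 6 months, where the medians over all tested probe sets were -0.04 and -0.05. Of 43 members, 22 lay below the baseline at 18 months and 21 at 30 months, beside 57.7% and 58.8% of all probe sets, and 22 lay lower at 30 than at 18 months, beside 54.1%. The 95% interval of the log2 change, from limma's moderated error, lay inside a halving and a doubling for 40 of 43 members at 18 months and for 40 of 43 at 30 months, and inside 1.5-fold either way for 31 and 28. Among all 3163 tested genes, 93.1% and 92.2% had an interval inside a halving and a doubling.

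**Figure D1:**
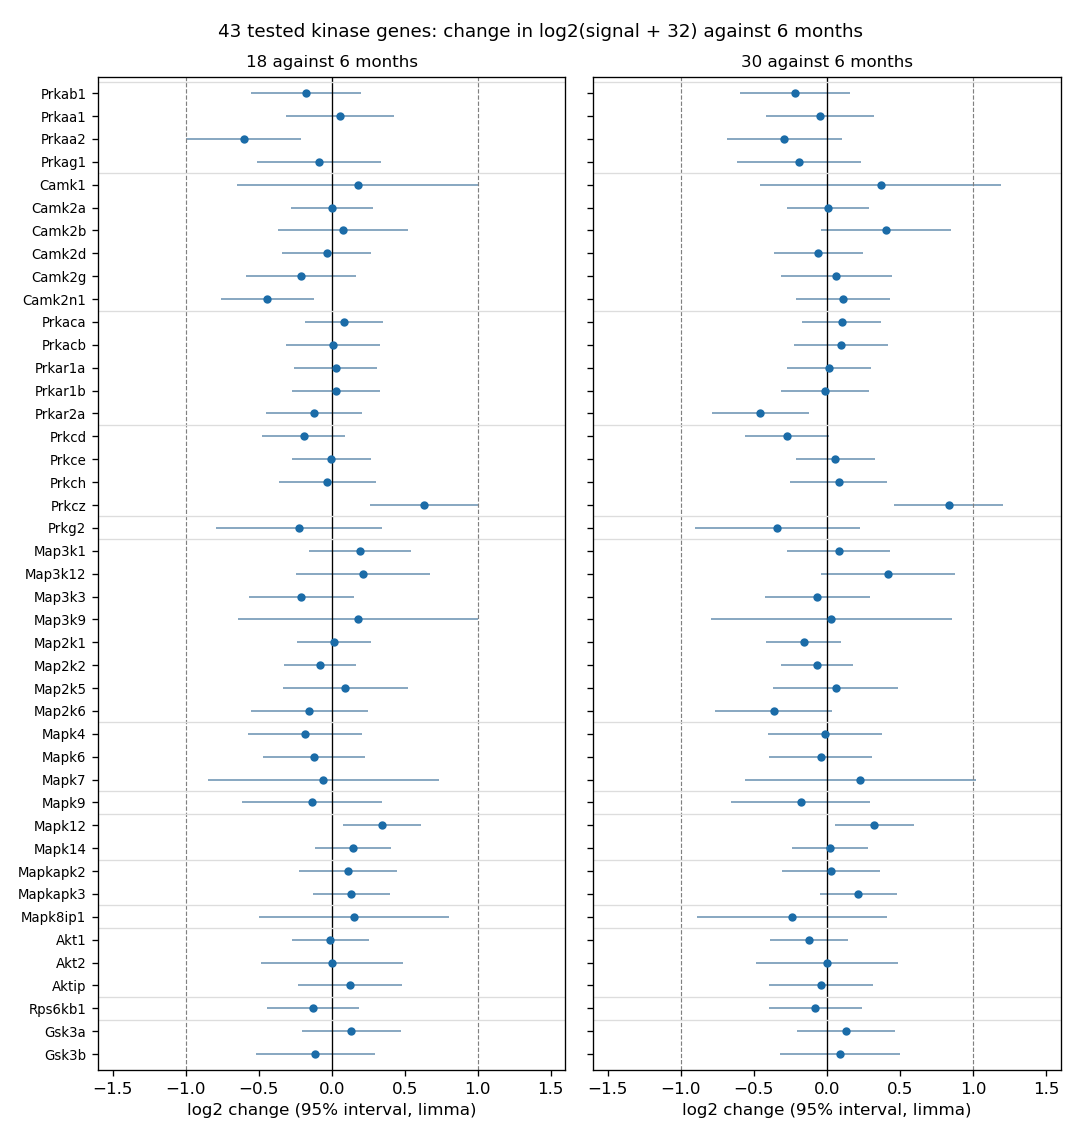
Change of the 43 tested kinase genes at 18 months (left) and 30 months (right) against 6 months, as the difference of mean log2(signal + 32) on the horizontal axis, with points for the estimates, bars for limma's 95% intervals, grey lines between families and dashed lines at a halving and a doubling. *Prkcz* lies farthest to the right in both panels, at 0.63 and 0.83, and most other points lie near 0.

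AMPK was read through 4 genes, all of them tested. The 4 log2 changes at 30 months were below 0, beside 58.8% of all probe sets, and each 95% interval included 0. Their median was -0.21 beside -0.05 for all probe sets, and the family was not tested as a set. *Prkaa2*, the catalytic α subunit that predominates in skeletal muscle, gave the lowest log2 change of the tested members at 18 months. Its signals were 372, 312 and 314 on the 6-month arrays, 266, 163 and 203 on the 18-month arrays and 233, 248 and 320.2 on the 30-month arrays. All 18-month arrays lay below all 6-month arrays, while the 30-month arrays overlapped both ages. The mean signal was 332 ± 34.6 at 6 months, 211 ± 52 at 18 months and 267 ± 46.7 at 30 months (SD, n = 3), a ratio of 1.58 between 6 and 18 months. The log2 difference at 18 months was -0.60 (SE 0.18, unadjusted p = 0.00667, adjusted p = 0.431), and it did not pass. At 30 months it was -0.29 against 6 months (95% interval -0.69 to 0.10).

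The other catalytic subunit, *Prkaa1*, read 81.8, 95.5 and 95.3 on the 6-month arrays, 88.1, 81 and 121 on the 18-month arrays and 63.7, 102 and 98.7 on the 30-month arrays. These groups overlapped at every pair of ages, and the log2 differences from 6 months were 0.06 and -0.05. *Prkab1*, the scaffold β subunit, read 523, 486 and 585 on the 6-month arrays, 503, 411 and 487 on the 18-month arrays and 459, 565 and 351 on the 30-month arrays, with differences of -0.18 and -0.22. *Prkag1*, a γ subunit, the kind that binds AMP, read 519.9, 641 and 538 on the 6-month arrays, 598, 384 and 639 on the 18-month arrays and 548, 421 and 511 on the 30-month arrays, with differences of -0.09 and -0.19. The spread within an age was wide for both, and adjusted p was 0.585 for *Prkab1* and 0.683 for *Prkag1* at 30 months. Signals of different probe sets have no common scale, so the subunits cannot be ranked by level.

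The CaM kinase symbols gave 12 genes, of which 6 passed the filter. *Camk2n1*, which encodes a small protein inhibitor of CaM kinase II, had its lowest signals at 18 months. Its signals were 88.4, 96.3 and 75.4 on the 6-month arrays, 49.9, 74.5 and 44.1 on the 18-month arrays and 95, 93.6 and 98.9 on the 30-month arrays. Each 18-month array lay below every array of 6 and of 30 months, by a narrow margin for replicate 2. The filter used the mean over all arrays. At 18 months the mean signal of 56.2 lay in the range of the genes under the filter, 6.30 to 65.2. The gene was thus tested because of its signals at 6 and 30 months. The log2 difference was -0.44 from 6 to 18 months (SE 0.14, unadjusted p = 0.0118, adjusted p = 0.471) and 0.55 from 18 to 30 months (SE 0.14, unadjusted p = 0.00331, adjusted p = 0.999). The ratio of the 30-month to the 18-month mean signal was 1.71. It thus met a fold rule, a ratio over 1.7 without overlap, that 0.629% of all probe sets met. Over the 17 other settings that tested the gene, this log2 difference was 0.28 to 0.72, and the remaining settings did not test it. Its other probe set, rc_AA858621_at, was under the filter at means of 20.8, 24.5 and 27.4 and was not lowest at 18 months.

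The 4 genes of CaM kinase II, the multimeric kinase that decodes calcium pulses, were all tested. *Camk2b*, a subunit gene well expressed in muscle, read 2832, 2264 and 1761 on the 6-month arrays, 1980.0, 2689 and 2480.0 on the 18-month arrays and 2455, 3222 and 3338 on the 30-month arrays. The 30-month values overlapped those of both younger ages, and replicate 1 of 30 months, at 2455, lay below the highest 6-month array. Its mean was 2286 ± 536 at 6 months and 3005 ± 479 at 30 months (SD, n = 3), a ratio of 1.31 and a log2 difference of 0.40 (SE 0.20, adjusted p = 0.415). The probe set of weaker signal, M16112_at, read 489, 356 and 214 on the 6-month arrays, 77.7, 362 and 406 on the 18-month arrays and 225, 601 and 833 on the 30-month arrays, with a difference of 0.50 at 30 months and a larger error of 0.58. Both were lowest on replicate 3 at 6 months and replicate 1 at the older ages.

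*Camk2g* read 642, 420.3 and 412 on the 6-month arrays, 426, 454 and 359.8 on the 18-month arrays and 514, 489 and 512 on the 30-month arrays. The 30-month arrays lay above the 18-month arrays without overlap, but the log2 difference of 0.28 had an adjusted p of 0.999 by limma. The baseline array at 642 exceeded them all. At 30 against 6 months the 2 tested probe sets of *Camk2g* lay at 0.06 and -0.27. *Camk2d*, the subunit gene also prominent in heart, read 630.4, 519.5 and 664 on the 6-month arrays, 626, 644 and 499 on the 18-month arrays and 577, 569.5 and 582 on the 30-month arrays. Its 95% interval was -0.36 to 0.24 for 30 against 6 months. The 3 tested probe sets of the gene spread from -0.39 to 0.14 there. *Camk2a*, known mainly from brain, read 103, 107 and 128.3 on the 6-month arrays, 111, 122 and 106 on the 18-month arrays and 102, 107 and 133 on the 30-month arrays, and its difference at 30 months was 0.01 (-0.27 to 0.29). All 9 arrays of *Camk2a* lay between 102 and 133. *Camk1*, a monomeric CaM kinase, read 159.5, 33.3 and 157 on the 6-month arrays, 139, 98.7 and 122 on the 18-month arrays and 124, 117 and 188 on the 30-month arrays; 1 baseline array, at 33.3, set most of its spread, and the standard error of its log2 difference of 0.37 at 30 months was 0.37.

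**Figure D2:**
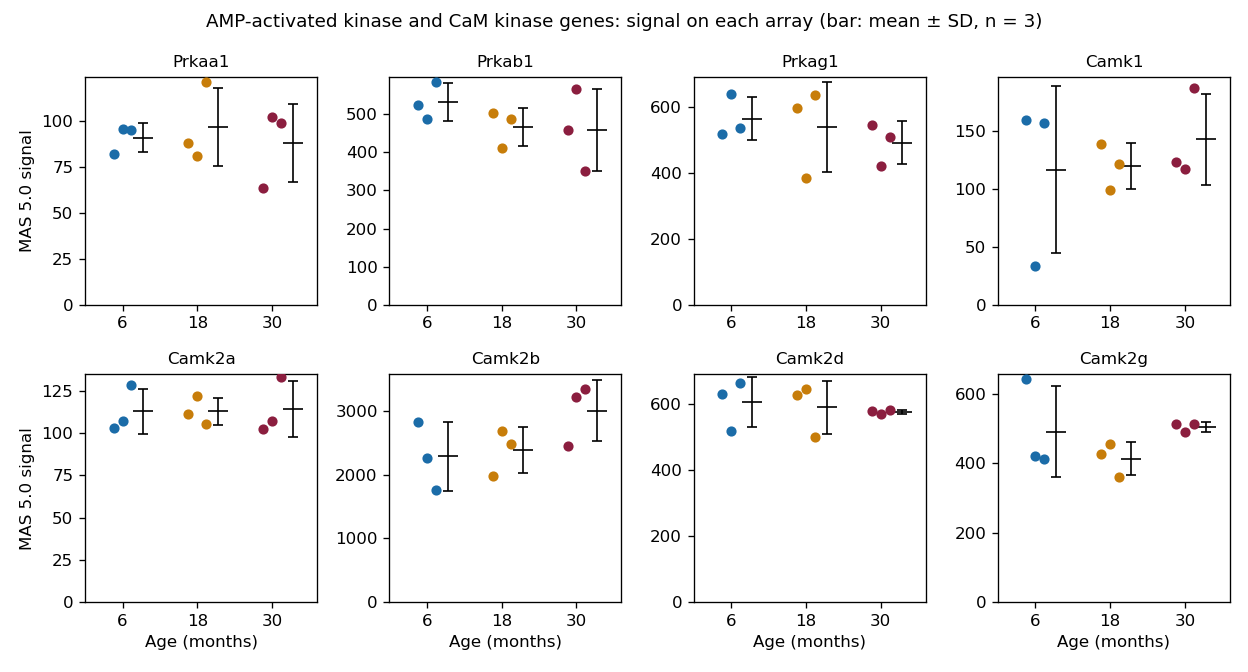
MAS 5.0 signal (vertical axis, linear, from 0) by age in months for AMPK genes *Prkaa1*, *Prkab1* and *Prkag1* and CaM kinase genes *Camk1*, *Camk2a*, *Camk2b*, *Camk2d* and *Camk2g*; each point is 1 array and the black bars are mean ± SD over 3 arrays. The ages overlap in every panel apart from *Camk2g* between 18 and 30 months, and *Camk2b* has its highest values, 3222 and 3338, on 30-month arrays.

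PKA was read through 6 genes, of which 5 were tested, and 4 of these had log2 differences within 0.10 of the baseline at both older ages. *Prkaca*, the main catalytic subunit, read 2381, 2000.3 and 1816 on the 6-month arrays, 2145, 2218 and 2171 on the 18-month arrays and 2152, 2257 and 2198 on the 30-month arrays. The groups overlapped, and the log2 differences from 6 months were 0.08 and 0.10, with an interval of -0.17 to 0.37 at 30 months. *Prkar1a*, a regulatory subunit that holds the catalytic subunits inactive, read 2826, 3359 and 3236 on the 6-month arrays, 3192, 3193 and 3185 on the 18-month arrays and 2738, 3556 and 3252 on the 30-month arrays, with differences of 0.03 and 0.01. *Prkacb* and *Prkar1b* differed by 0.10 and -0.01 at 30 months. The second tested probe sets of *Prkacb* and *Prkaca* lay at -0.22 and 0.21.

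The exception was *Prkar2a*, the type II regulatory subunit that docks PKA on anchoring proteins. Its signals were 444, 357 and 399.6 on the 6-month arrays, 422, 308 and 371 on the 18-month arrays and 323, 279 and 249.6 on the 30-month arrays. All 30-month arrays lay below all 6-month arrays, and the 18-month arrays spanned both. The mean went from 400.2 ± 43.8 at 6 months over 367 ± 56.9 to 284 ± 36.8 (SD, n = 3), a ratio of 1.41 between 6 and 30 months. The log2 difference was -0.45 (SE 0.15, unadjusted p = 0.0119, adjusted p = 0.304) and -0.33 from 18 to 30 months (adjusted p = 0.999). *Prkg2*, a kinase driven by cyclic GMP, read 119, 124 and 96 on the 6-month arrays, 167, 70.0 and 61 on the 18-month arrays and 81.1, 71.5 and 95.4 on the 30-month arrays; its 30-month arrays lay just below the baseline arrays, and the difference of -0.34 had an adjusted p of 0.579.

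*Prkcz* showed the largest difference among the tested members at 18 and at 30 months against the baseline. It encodes PKCζ, an atypical PKC that needs neither calcium nor diacylglycerol and is known from cell polarity and from insulin-stimulated glucose uptake. Its signals were 141, 178 and 117 on the 6-month arrays, 204, 299.5 and 225 on the 18-month arrays and 298, 255 and 291 on the 30-month arrays. Every array of 18 and 30 months lay above every 6-month array, and the older ages overlapped each other. The mean was 145 ± 30.6 at 6 months, 243 ± 50.2 at 18 months and 281 ± 23.3 at 30 months (SD, n = 3), a ratio of 1.67 and then 1.94 to the baseline. The log2 difference was 0.63 at 18 months (SE 0.17, unadjusted p = 0.00378, adjusted p = 0.404) and 0.83 at 30 months (SE 0.17, unadjusted p = 0.0006, adjusted p = 0.121). It therefore did not pass over all probe sets, although its 95% interval at 30 months, 0.46 to 1.21, excluded 0. *Prkcz* was the 1 tested member that met the fold rule at 30 months against 6 months, a ratio over 1.7 without overlap. Of all tested probe sets 2.23% met it. At 18 months 0 tested members met it, beside 1.43% of all. Over the other settings its difference at 30 months was 0.59 to 0.96, with an adjusted p of 0.0664 to 0.312. Without both arrays high in thyroglobulin it was 0.81 (adjusted p = 0.298 by limma), and 0.67 at 18 months. The other probe set of *Prkcz*, J04532_at, read 10.2, 3.3 and 8.8 on the 6-month arrays, 12.1, 20.0 and 6.8 on the 18-month arrays and 30.0, 26.3 and 21.6 on the 30-month arrays. That signal was under the filter and without a test. Its 30-month arrays lay above the baseline arrays, as held for 7.40% of all tested probe sets, while its 18-month arrays overlapped them.

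Among tested members, *Prkcz* had the highest and *Prkaa2* the lowest difference at 18 months. The 250 bases before their RefSeq start sites are therefore shown (build GRCr8, both on the minus strand, written 5′ to 3′). Capitals mark GC boxes, matches to GGGCGG on either strand. The windows are chr5:171212675-171212924 for *Prkcz* and chr5:125108325-125108574 for *Prkaa2*, and RefSeq's table held no window for *Camk2n1*.
Prkcz: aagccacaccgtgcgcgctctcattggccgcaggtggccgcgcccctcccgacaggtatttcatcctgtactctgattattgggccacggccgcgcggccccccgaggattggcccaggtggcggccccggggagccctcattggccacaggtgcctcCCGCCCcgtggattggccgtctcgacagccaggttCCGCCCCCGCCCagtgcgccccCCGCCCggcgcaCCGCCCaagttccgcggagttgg
Prkaa2: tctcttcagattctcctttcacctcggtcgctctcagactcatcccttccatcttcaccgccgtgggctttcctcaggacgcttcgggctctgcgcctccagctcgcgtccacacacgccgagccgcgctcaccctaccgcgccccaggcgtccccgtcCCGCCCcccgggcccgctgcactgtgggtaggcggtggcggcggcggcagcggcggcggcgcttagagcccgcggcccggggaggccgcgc

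Both windows were rich in GC, 72.0% for *Prkcz* and 72.8% for *Prkaa2*, where the median over 33469 windows of the same length was 51.2%. The *Prkcz* window held 5 GC boxes, at 92, 57, 51, 35 and 23 bases before the start, and the *Prkaa2* window held 1, at 91 bases before it. Of all windows, 30.5% held at least 1 GC box and 1.72% at least 5. The cyclic AMP response element TGACGTCA (in 1.59% of all windows), its core TGACG (18.2%), the E-box CACGTG (5.59%), the MEF2 motif CTAAAAATA (0.442%) and the TATA motif TATAAA (12.9%) had no match on either strand in these windows, which says only that the letters are not there; TGACGTCA contains TGACG.

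The other PKC genes gave smaller values. *Prkcd*, the δ form, read 303, 262 and 248 on the 6-month arrays, 238, 232 and 226 on the 18-month arrays and 256, 192 and 210.2 on the 30-month arrays. The 18-month arrays lay below the baseline arrays, and the 30-month arrays overlapped them through replicate 1. The log2 differences were -0.19 and -0.27 (adjusted p = 0.677 and 0.395). *Prkch* read 292, 241 and 260.5 on the 6-month arrays, 315, 244 and 221 on the 18-month arrays and 278, 249 and 318 on the 30-month arrays, and *Prkce* had a difference of 0.06 at 30 months, with an interval of -0.21 to 0.33. Its 4 probe sets lay between 0.01 and 0.09 at 30 months.

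**Figure D3:**
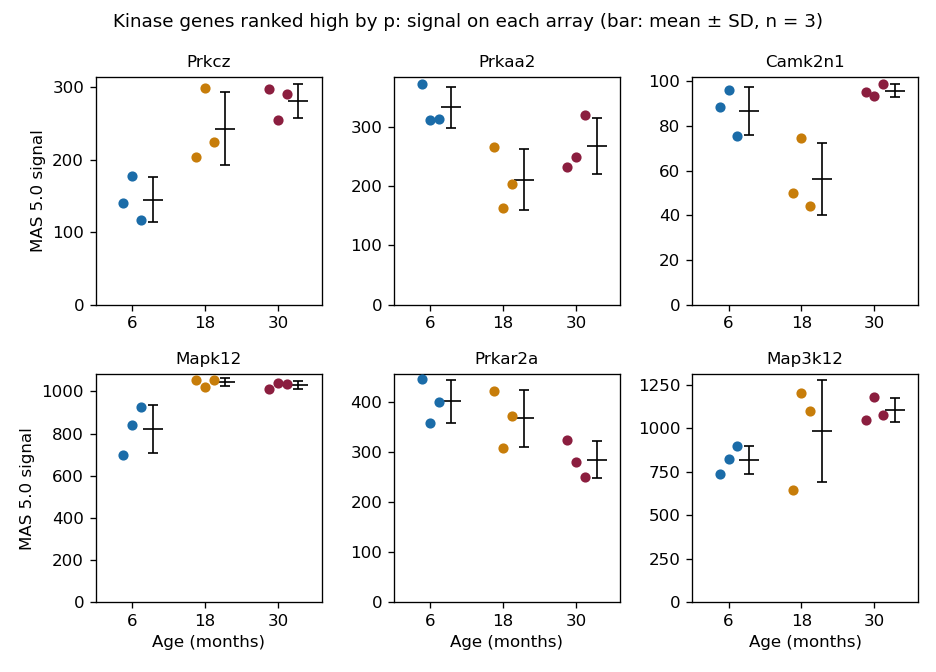
MAS 5.0 signal (vertical axis, linear, from 0) by age in months for *Prkcz*, *Prkaa2*, *Camk2n1*, *Mapk12*, *Prkar2a* and *Map3k12*; each point is 1 array and the black bars are mean ± SD over 3 arrays. *Prkcz* reads 141, 178 and 117 at 6 months and 298, 255 and 291 at 30 months, and *Camk2n1* is lowest on the 18-month arrays, but no gene in the plot passed the test.

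The MAP kinase cascade was the largest family, with 20 genes on the array and 17 tested, and its median log2 change was 0.09 at 18 months and 0.02 at 30 months. Among the kinases at the top of the chains, *Map3k12*, which encodes the dual leucine zipper kinase known from axon injury, read 737, 822 and 895 on the 6-month arrays, 647, 1199.5 and 1101 on the 18-month arrays and 1049.7, 1181 and 1077 on the 30-month arrays. Its 30-month arrays lay above the baseline arrays, while replicate 1 of 18 months was the lowest array of all and replicates 2 and 3 of that age were among the highest. The difference at 30 months was 0.42 (SE 0.21, adjusted p = 0.413). *Map3k1*, *Map3k3* and *Map3k9* had differences of 0.08, -0.07 and 0.03 at 30 months.

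In the middle tier, *Map2k2*, an activator of ERK, read 2940.3, 2529.9 and 2586 on the 6-month arrays, 2625, 2558 and 2424 on the 18-month arrays and 2619, 2674 and 2384 on the 30-month arrays, with an interval of -0.31 to 0.18 at 30 months. *Map2k1* and *Map2k5* had differences of -0.16 and 0.06. *Map2k6*, an activator of p38, had means of 983 ± 63.1 at 6 months and 763 ± 133 at 30 months (SD, n = 3); the arrays did not overlap, but the difference of -0.36 had an adjusted p of 0.413. No-overlap alone was common: it held for 7 of 43 members (16.3%) at 30 months, 4 higher and 3 lower, and for 22.2% of all probe sets, 7.40% higher and 14.8% lower. At 18 months it held for 6 of 43, 3 higher and 3 lower, and for 13.7% of all, 5.32% higher and 8.35% lower.

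*Mapk12* encodes p38γ, the p38 form enriched in skeletal muscle. Its signals were 697, 843 and 924 on the 6-month arrays, 1053, 1023 and 1056 on the 18-month arrays and 1009.5, 1042 and 1037 on the 30-month arrays. All 6 older arrays lay above all baseline arrays and within a span of 1009.5 to 1056, whereas the baseline arrays were spread over 697 to 924. The log2 difference was 0.34 at 18 months (SE 0.12, unadjusted p = 0.0178, adjusted p = 0.51) and 0.32 at 30 months (unadjusted p = 0.0235, adjusted p = 0.331). Its other probe set, X96488cds_at, read 833, 628 and 658 on the 6-month arrays, 622, 610.3 and 614 on the 18-month arrays and 654, 646 and 555 on the 30-month arrays, with differences of -0.18 and -0.18, on the opposite side. With the mean over both probe sets *Mapk12* stood at 0.08 and 0.07.

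*Mapk14*, the p38α gene, was read by 6 tested probe sets that spread from -0.19 to 0.54 at 30 months. The one with the highest signal read 1672, 2053 and 1971 on the 6-month arrays, 1973, 2081 and 2227 on the 18-month arrays and 1985, 1865 and 1907 on the 30-month arrays, and its difference at 30 months was 0.02 (-0.24 to 0.28). The probe set rc_AI171630_s_at, named after its values were seen, read 998, 1256 and 1421 on the 6-month arrays, 1443, 1899.9 and 1606 on the 18-month arrays and 1907, 1706 and 1720.5 on the 30-month arrays. There every older array lay above every baseline array, with a difference of 0.54 at 30 months (SE 0.15, unadjusted p = 0.00625, adjusted p = 0.27). Of the 33 other tested probe sets of member genes, it was the only 1 with an unadjusted p under 0.05 by limma in 30 against 6 months. Of all probe sets 12.9% met that. In 18 against 6 months 2 of the 33 met it, beside 8.62% of all, and in 30 against 18 months 1, beside 3.20%. These counts are no result about the kinases.

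*Mapkapk3*, a kinase activated by p38, read 1772, 1602 and 1832 on the 6-month arrays, 1685, 2027 and 2023 on the 18-month arrays and 1998, 2106 and 1946 on the 30-month arrays. Its 30-month arrays lay above the baseline arrays, with a difference of 0.21 (adjusted p = 0.463), and its 3 other probe sets gave 0.18, 0.53 and -0.10. *Mapkapk2* differed by 0.03. *Mapk6*, the atypical kinase ERK3, read 921, 1225 and 1349 on the 6-month arrays, 927, 1194 and 1059 on the 18-month arrays and 1174, 1124 and 1056 on the 30-month arrays, with all ages overlapping and differences of -0.12 and -0.04. *Mapk4* and *Mapk7* (ERK5) had differences of -0.01 and 0.23. *Mapk9*, a c-Jun N-terminal kinase, read 198, 253 and 304 on the 6-month arrays, 156, 286 and 247 on the 18-month arrays and 182, 243 and 224 on the 30-month arrays (-0.18 at 30 months). *Mapk8ip1*, a scaffold of that pathway, read 255, 233 and 325 on the 6-month arrays, 224, 289 and 419 on the 18-month arrays and 137, 342 and 232 on the 30-month arrays; its 30-month arrays alone spanned 137 to 342, and the interval was -0.89 to 0.41.

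Akt, S6 kinase and GSK3, the insulin-side kinases, had 6 of 6 genes tested. Differences at 30 months were between -0.12 and 0.13 for the probe sets of highest signal. The other tested probe sets of these genes lay between -0.25 (*Gsk3b*) and 0.25 (*Akt2*). *Akt1* read 1561, 1299 and 1309 on the 6-month arrays, 1447, 1260.1 and 1425 on the 18-month arrays and 1338, 1226 and 1246 on the 30-month arrays. The groups overlapped, the interval at 30 months was -0.39 to 0.14, and the other probe set of the gene, D30040_at, lay on the opposite side at 0.20. *Akt2*, the Akt form known for insulin-stimulated glucose uptake in muscle, had an interval at 30 months of -0.49 to 0.49. *Rps6kb1*, the S6 kinase that promotes translation, read 410.0, 480.4 and 478 on the 6-month arrays, 413, 398 and 429.6 on the 18-month arrays and 438, 352 and 512 on the 30-month arrays (-0.40 to 0.24 at 30 months). *Gsk3a*, a kinase that inhibits glycogen synthase, read 766, 674 and 740.3 on the 6-month arrays, 658, 771 and 1004 on the 18-month arrays and 804, 835 and 757 on the 30-month arrays (-0.21 to 0.47), and *Gsk3b* differed by 0.09. *Aktip*, an Akt-binding protein, read 392, 425 and 397 on the 6-month arrays, 507, 333 and 517 on the 18-month arrays and 388, 378 and 413 on the 30-month arrays (-0.04).

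Several genes were read more than once, and their probe sets often gave opposite signs. Of 20 genes with several tested probe sets, 53 probe sets in all, all probe sets shared a sign in 6 at 18 months and in 7 at 30 months against the baseline. The 7 at 30 months were *Camk2b*, *Map2k5*, *Prkaca* and *Prkce* above 0, and *Map2k1*, *Mapk6* and *Rps6kb1* below 0. With the mean over all probe sets of a gene in place of the strongest, 0 kinase genes passed in each of the 3 comparisons, and 3, 2 and 2 of 41 tested had an unadjusted p under 0.05, beside 338, 514 and 139 of all 3882 tested.

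**Figure D4:**
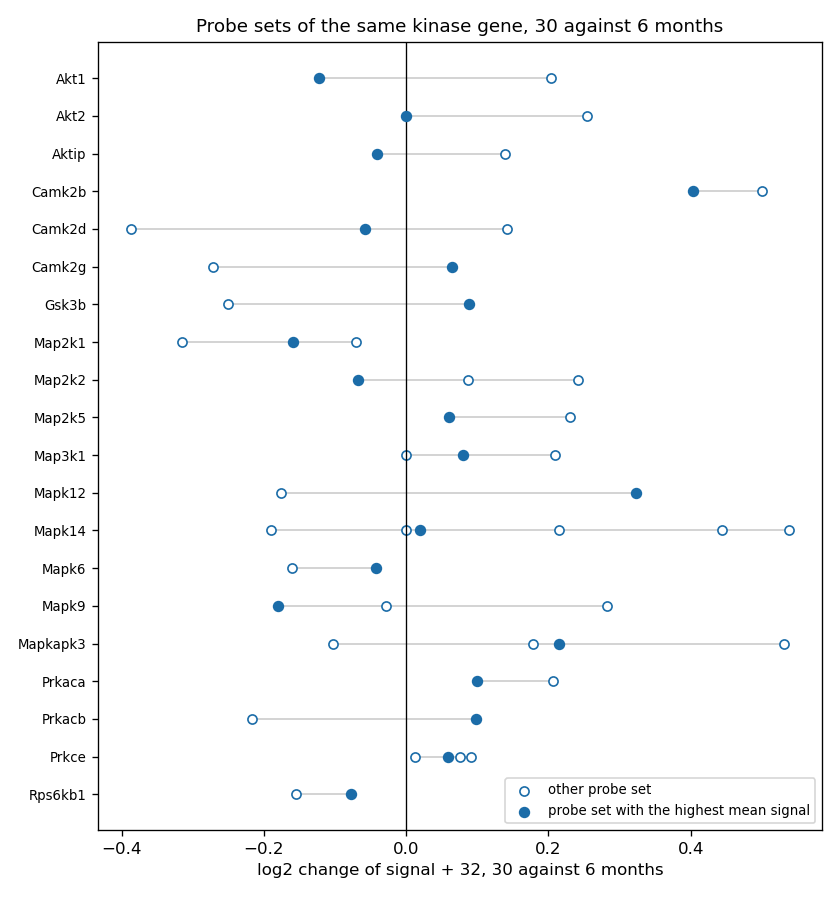
Log2 change at 30 months against 6 months (horizontal axis) of each tested probe set for the 20 kinase genes with several of them (rows); filled points are the probe set with the highest mean signal, open points the others. The 6 probe sets of *Mapk14* spread from -0.19 to 0.54 and those of *Mapk12* lie on opposite sides of 0, whereas the 4 of *Prkce* lie between 0.01 and 0.09.

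The 12 genes under the filter had mean signals of 6.30 to 65.2 over all arrays, and no test was made for them. They were *Camk1g*, *Camk4*, *Camkk1*, *Camkk2*, *Camk2n2*, *Camkv*, *Map3k8*, *Mapk8*, *Mapk8ip2*, *Prkar2b*, *Prkca* and *Prkcb*. The CaM kinase kinases, which activate CaM kinases and AMPK, were both among them: *Camkk1* read 56.8, 61.5 and 109.9 on the 6-month arrays, 54.7, 42.3 and 81.1 on the 18-month arrays and 38.5, 15.7 and 56.5 on the 30-month arrays, and *Camkk2* read 90.8, 69.9 and 61.2 on the 6-month arrays, 50.3, 36.8 and 89.8 on the 18-month arrays and 34.8, 61 and 66.2 on the 30-month arrays. Their arrays at 30 months averaged lower, and for *Camkk1* they lay below the baseline arrays without overlap. For *Camkk1* the ratio of the 6-month to the 30-month mean was 2.06, on signals under the filter. *Mapk8*, another c-Jun N-terminal kinase, read 86.1, 69.6 and 100.4 on the 6-month arrays, 24.5, 78.9 and 57.9 on the 18-month arrays and 44.3, 58.6 and 66.9 on the 30-month arrays. Again the 30-month arrays lay below the baseline arrays. These were the 2 of 12 without overlap in 30 against 6 months, beside 22.2% of all tested probe sets. *Camk2n2* was lower without overlap in 18 against 6 months, 1 of 12 beside 13.7%. *Camkv* was so in 30 against 18 months, 1 of 12 beside 7.36%.

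Comparison of 30 with 18 months gave a median of -0.0019 over the members and -0.02 over all probe sets. The range was -0.39 (*Mapk8ip1*) to 0.55 (*Camk2n1*), and 3 of 43 members (6.98%) did not overlap, *Camk2n1* and *Camk2g* higher and *Map2k1* lower, beside 7.36% of all probe sets, 3.18% higher and 4.18% lower. *Prkaa2* differed by 0.31 (-0.08 to 0.70), *Camk2b* by 0.33 (-0.12 to 0.77) and *Prkcz* by 0.20 (-0.17 to 0.58). This comparison shares its arrays with the other 2, so that a value in one is not independent of a value in another.

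The pathways around the kinases were counted in 11 lists of 173 entries, of which 119 were on the array and 90 tested. In none of the 3 comparisons did a gene pass: 0 of 90 in each by limma, with an unadjusted p under 0.05 in 6, 8 and 2, where 8.62%, 12.9% and 3.20% of all probe sets met it. Over the 90 genes, 32 lay above the baseline and 58 below it at 18 months, and the same numbers at 30 months, while 57.7% and 58.8% of all probe sets lay below it. Upstream of PKA, 8 genes had a median of 0.05 at 18 months and 0.03 at 30 months; the stimulatory G protein gene *Gnas* differed by 0.35 and the adenylate cyclase *Adcy2* by 0.14 at 30 months. Among anchors, inhibitors and phosphodiesterases, 9 genes had medians of 0.02 and 0.06, with the PKA inhibitor *Pkia* at 0.14 and the mitochondrial anchor *Akap1* at 0.06. The 6 cyclic AMP response factors had medians of -0.08 and -0.15, with *Nr4a1* at 0.18 and *Crem* at 0.19.

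Calmodulin and calcineurin genes, 5 tested, had medians of -0.13 and -0.08, with *Calm2* at -0.23 and *Ppp3ca*, a calcineurin catalytic subunit, at -0.08. In the insulin and PI3 kinase list 12 of 14 genes lay below the baseline at 18 months and 13 of 14 at 30 months, beside 57.7% and 58.8% of all probe sets, with medians of -0.13 and -0.16; *Rps6* was at -0.14 and the glucose transporter *Slc2a4* at -0.02. Ras and Raf genes, 6 tested, had medians of -0.18 and -0.21, with *Spry1* at -0.20 and *Araf* at -0.22. The 4 MAP kinase phosphatases had medians of -0.33 and -0.0020; *Dusp1* was at 0.05 and *Dusp6* at 0.02 at 30 months. The 11 immediate early genes had medians of -0.12 and -0.10, with *Egr1* at -0.03 and *Jun* at -0.09.

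AMPK targets, 10 tested, had medians of 0.03 and 0.11, with the fatty acid importer *Cpt1b* at 0.12 and hexokinase *Hk2* at 0.10. Glycogen enzymes, 6 tested, had medians of 0.10 and 0.09; muscle phosphorylase *Pygm* was at 0.25 and its kinase's subunit *Phkg1* at -0.21. PKC activators and substrates, 11 tested, had medians of -0.12 and -0.11, with *Rack1* at 0.03 and the diacylglycerol kinase *Dgkz* at -0.07. None of these medians is a test of its list.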

How the data were processed

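The authors deposited 1 table of signal intensity on a linear scale from Affymetrix Microarray Suite 5.0, per the labels and the series' design text; no settings are given in the sources used here. Of 8799 probe sets 59 controls were left out. Values were analysed as log2(signal + 32), and the upper 60% by mean, 5244 probe sets, were fitted with limma 3.58.1 in R 4.3.3 with 1 mean per age, 6 residual and 3.69 prior degrees of freedom. P-values were two-sided and Benjamini-Hochberg adjusted over all tested probe sets at 0.05. With 3 arrays per age the smallest exact permutation p is 0.1, and no such test was made. The number of arrays limits the precision. Symbols came from the platform's annotation; 55 of 55 member gene IDs matched RefSeq (GRCr8). Promoter windows came from RefSeq. Described on every array were the 5 members with the lowest p per comparison, tested AMPK and CaM kinase genes and the strongest member per family; in lists, the 2 genes of highest signal. Further genes were chosen once their values were known. Members and lists were chosen with earlier results of these data known. The authors' present and difference calls were not used. The fits were tested on simulated data. Alternatives were a lower and a higher pseudocount, filters, normalization, a block, and left-out arrays.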

Additional observations from a re-analysis of the deposited data

How the results depend on the processing

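The number of kinase genes past the threshold was 0 in each comparison and in the F-test under every model setting tried. The fold rule (ratio over 1.7 without overlap) was applied to genes past the filter. By that rule the number was 1 in 30 against 6 months and 1 in 30 against 18 months. Across settings 2 to 6, 1 to 6 and 1 to 3 members had an unadjusted p under 0.05 in 18 against 6, 30 against 6 and 30 against 18 months, beside 337 to 662, 416 to 1029 and 92 to 408 of all probe sets. Of 1632 alternative values for 29 named genes, 0 became a call, 48 moved by over a standard error and 98 changed sign; none of these genes was a call. Over all probe sets, the 4 calls of 18 against 6 months became 8 with a higher pseudocount, 8 with a variance trend, 0 with only the 2 ages compared, and 75 by the fold rule. The 17 of 30 against 6 months became 11 with the replicate block and 117 by the fold rule. The 1 of 30 against 18 months became 0 with a higher pseudocount, the upper 40%, the replicate block, a variance trend or only the 2 ages, 4 without filtering and 33 by the fold rule; the cause was not tested. Leaving out 1 array gave 0 to 5, 0 to 20 and 0 to 1, with 0 kinase genes throughout; without both arrays high in thyroglobulin, chosen after seeing the data, it gave 0, 0 and 0. After removing age means, same-numbered arrays correlated at -0.02 to 0.26 and differently numbered arrays at -0.21 to 0.15. Whether replicate numbers mark a shared batch was not tested. The replicate block left 0 kinase genes called. Probe sets of weak signal limit 12 of 55 members, which have no test.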

Other observations

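A few genes around the kinases ranked high by p without passing; they were chosen after their values were seen. *Dusp6*, a phosphatase that switches off ERK, read 685, 555 and 714 on the 6-month arrays, 438, 522 and 446 on the 18-month arrays and 594, 688 and 688 on the 30-month arrays. The 18-month arrays were the low ones, with a log2 difference of -0.45 from 6 months (SE 0.13, adjusted p = 0.431 by limma) and of 0.46 from 18 to 30 months (adjusted p = 0.999). *Pde4d*, which degrades cyclic AMP, read 152, 177 and 202 on the 6-month arrays, 73.1, 126 and 121 on the 18-month arrays and 162, 126 and 169.5 on the 30-month arrays, with differences of -0.61 and 0.43 over the same steps (adjusted p = 0.431 and 0.999). Like *Camk2n1* and *Prkaa2*, both had their lowest mean at 18 months. Since these genes were singled out by p or after their values were seen, the shared low point is no result. The steps down and up also share the same 18-month arrays.

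*Eif4ebp1*, a translation repressor that is phosphorylated by the mTOR pathway, read 2448, 2007 and 2275 on the 6-month arrays, 1789, 978 and 2155 on the 18-month arrays and 1147, 845 and 1141 on the 30-month arrays. Its difference at 30 months was -1.09 (SE 0.26, adjusted p = 0.182). *Plcb1*, a phospholipase that produces the diacylglycerol that PKC binds, read 98.2, 94.6 and 95 on the 6-month arrays. It read 58.1, 55.1 and 76.5 on the 18-month arrays and 68, 50.8 and 60 on the 30-month arrays. The log2 differences from 6 months were -0.43 and -0.49 (adjusted p = 0.431 and 0.235). Its means at 18 and 30 months, 63.2 and 59.6, lay in the range of the kinase genes under the filter, 6.3 to 65.2. *Plcb1* was thus tested because of its signals at 6 months, and its older signals are weak. *Srebf1*, a lipogenic transcription factor under AMPK control, differed by -0.61 at 30 months (adjusted p = 0.26). None of these passed the threshold.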
